A study of Homo sapiens with 8 samples.

Results

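The caspase-1 and inflammasome genes are 10 genes, CASP1, CARD16, CASP4, PYCARD, AIM2, IL18, GSDMD, NLRP1, CARD8 and IFI16, of 25906 genes with FPKM values in the deposited table. They were taken by gene symbol, and each had 1 entry with values in all 8 libraries. The set was put together around one observation in these same libraries, that CASP1 and CARD16 were nearly silent in NCI-H929 cells with empty vector and much higher in their counterparts with CTBP2. The response of NCI-H929 cells to CTBP2 and the low starting level of these 2 genes are therefore given below as a description, without a test. Tests are given for the response in the other cell line, and for the difference between the lines without CTBP2 in the members other than CASP1, CARD16 and PYCARD. IL18 was too low to be tested in either.

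An inflammasome is a protein platform that forms in the cytosol when a sensor meets a danger signal. A sensor such as AIM2 or NLRP1 recruits the adaptor ASC, the product of PYCARD, and ASC gathers caspase-1, which then cuts the cytokine precursors pro-IL-1β and pro-IL-18 and the pore-forming protein gasdermin D. The pathway is best known from macrophages and other myeloid cells. Multiple myeloma, the disease of the lines studied here, is a cancer of plasma cells.

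RNA was sequenced from MM.1S and NCI-H929, both established human multiple myeloma lines. Cells had been exposed to lentivirus for 72 hours, either with a CTBP2 overexpression vector or with empty vector (EV), and each line and vector had biological duplicates. CTBP2 encodes a corepressor, a protein that is brought to DNA by other factors and dampens transcription there. The groups by label were MM.1S with CTBP2, NCI-H929 with CTBP2, MM.1S with EV and NCI-H929 with EV, and all 4 shared the medium, the lentiviral delivery and the time. The labels do not say whether the duplicates were separate transductions of separate cultures, so p-values measure the spread between these libraries. No clone selection, promoter or protein level is given in the sources used here.

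The transgene was plain in the labelled libraries, since CTBP2 stood at 1621 to 5884 FPKM in the 4 CTBP2 libraries and at 0.148 to 0.213 FPKM in the 4 EV libraries. The line labels did not all match the line genes. CCND2 was above 10 FPKM in the MM.1S EV libraries, at 94.6 and 115.4 FPKM, and FGFR3 was above 10 FPKM in the NCI-H929 EV libraries, at 13.8 and 21.7 FPKM, and no library had both genes above that limit. In the MM.1S-labelled CTBP2 replicate 2, FGFR3 was at 22.2 FPKM and CCND2 at 0.0582 FPKM. In the NCI-H929-labelled CTBP2 replicate 2, FGFR3 was at 0.0399 FPKM and CCND2 at 60.7 FPKM. Libraries are therefore grouped here by the line gene above 10 FPKM, the same rule under which the genes were chosen, and are called FGFR3-expressing (the NCI-H929 pattern) or CCND2-expressing (the MM.1S pattern), with 2 CTBP2 and 2 EV libraries each. The reason for the mismatch was not tested, and results are also given without both of these libraries and with the lines as titled.

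FPKM scales fragments by transcript length and library total, so it allows levels to be compared between genes. Fold changes and tests use log2(FPKM + 1), which understates the change of genes with low values, in limma with Benjamini-Hochberg adjustment over the 12583 genes that reached 1 FPKM in 2 or more libraries. An alternative scaling to equal totals of all genes but CTBP2 and the immunoglobulin genes is named where it turns a direction. Of the 10 members, 9 passed that filter of 1 FPKM, and IL18 did not. CASP1, CARD16 and PYCARD, near or at 0 in NCI-H929 with EV, passed it through the other groups. Library depth, as the spacing of low FPKM values gave it, was 16000000 to 21100000 fragments. Of 8 plasma cell markers, 7 were at 1 FPKM or more in every library. Of 10 myeloid markers, 2 (ITGAM and S100A9) reached 1 FPKM in any library. The 10 together summed to 1.28 to 9.37 FPKM in CTBP2 libraries and 0.568 to 1.40 FPKM in EV libraries, while MPO, TYROBP, CD163, S100A8 and FCGR3A stayed at 0.246 FPKM or less throughout. The summed T and NK cell markers stood at 3.24 to 56.1 FPKM in CTBP2 libraries and 1.08 to 4.81 FPKM in EV libraries. CD3E was the largest part of that sum in all but MM.1S EV replicate 2, and was at 16.7 and 53.1 FPKM in the FGFR3-expressing CTBP2 libraries. Over all libraries the others stayed low, with CD3D at 0.214 FPKM or less, CD8A at 0.238 or less and CD2 at 0.955 or less. NKG7 was at 0.981 FPKM or less and GNLY at 1.14 or less. The summed epithelial markers stood at 2.32 to 27.9 FPKM in CTBP2 libraries and 0.952 to 18.5 FPKM in EV libraries. Of these, KRT18 was at 13.8 to 26.3 FPKM in FGFR3-expressing libraries over both vectors and at 0.402 to 0.650 FPKM in CCND2-expressing ones. The part of these cell types in the results below was not tested. In bulk RNA, fewer cells of a kind and less RNA per cell cannot be told apart.

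CASP1 encodes caspase-1, the protease at the centre of the pathway, and CARD16 encodes a short protein made of little more than a caspase recruitment domain like that of caspase-1. In the FGFR3-expressing libraries CASP1 was at 18.8 FPKM (labelled NCI-H929 CTBP2 replicate 1) and 21.5 FPKM (labelled MM.1S CTBP2 replicate 2), against 1.09 and 0.935 FPKM with EV. CARD16 was at 16.7 and 23.0 FPKM with CTBP2, against 0.982 and 1.92 FPKM with EV. For both genes the CTBP2 and EV libraries lay far apart. The ratio of mean FPKM was 19.9 for CASP1 and 13.7 for CARD16, and the log2 differences were 3.39 (SE 0.15) and 3.10 (SE 0.22). Ranked by this difference among the 12583 genes, CASP1 was number 8 and CARD16 number 15, which is the property for which they were picked. By the depth estimate, the EV values of CASP1 correspond to about 26 and 20 fragments.

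In the CCND2-expressing libraries CASP1 was already abundant. It stood at 31.6 FPKM (labelled MM.1S CTBP2 replicate 1) and 31.5 FPKM (labelled NCI-H929 CTBP2 replicate 2), against 20.9 and 24.1 FPKM with EV. CARD16 stood at 18.6 and 17.6 FPKM with CTBP2, against 13.2 and 12.7 FPKM with EV. The groups did not overlap for either gene and the ratio of means was 1.40 for both, but neither passed the test. The log2 difference was 0.47 for CASP1 (SE 0.15, limma adjusted p = 0.0919) and 0.46 for CARD16 (SE 0.22, limma adjusted p = 0.225). The 95% intervals ran over 0.13 to 0.81 for CASP1 and over -0.05 to 0.96 for CARD16. The difference between the line responses was 2.92 for CASP1 and 2.64 for CARD16 on the log2 scale and was not tested, since one side of it chose the genes.

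CASP1 and CARD16 are neighbours on chromosome 11 and share sequence, so their FPKM are not independent. Of the distinct 50-base words in the CARD16 transcripts of GENCODE, 14.6% (118 of 807) also occur in CASP1 transcripts, and these are 5.16% of the CASP1 words. The longest shared stretch inside both coding sequences is 144 bases, shown because a fragment that lies within it cannot be assigned to one gene.
CASP1 and CARD16 shared coding run: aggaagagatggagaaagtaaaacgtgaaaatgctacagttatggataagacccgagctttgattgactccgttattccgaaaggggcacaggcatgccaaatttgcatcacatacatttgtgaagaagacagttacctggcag
How the deposited values divide such fragments is not given in the sources used here. The FPKM of CARD16 over that of CASP1 was 0.885 and 1.07 in the FGFR3-expressing CTBP2 libraries and 0.897 and 2.05 in the NCI-H929 EV libraries. It was 0.587 and 0.560 in the CCND2-expressing CTBP2 libraries and 0.631 and 0.524 in the MM.1S EV libraries. The ratio was not constant, and it was lower in each CCND2-expressing library than in each FGFR3-expressing one. The level of CARD16 alone remains uncertain.

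CASP4 encodes caspase-4, which binds bacterial lipopolysaccharide in the cytosol and cuts gasdermin D, and it lies in the same cluster of caspase genes on chromosome 11. No 50-base word is shared between its transcripts and those of CASP1, so its values give a reading of the cluster free of that overlap. In FGFR3-expressing libraries CASP4 was at 40.3 and 36.5 FPKM with CTBP2, against 8.58 and 10.9 FPKM with EV. The groups did not overlap, the ratio of means was 3.94 and the log2 difference 1.88 (SE 0.16), number 115 of the 12583 genes. In CCND2-expressing libraries CASP4 was at 33.3 and 31.5 FPKM with CTBP2, against 28.5 and 26.8 FPKM with EV. Here too the CTBP2 libraries lay above the EV libraries, by a log2 difference of 0.22 (SE 0.16), which did not pass (limma adjusted p = 0.401).

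With CTBP2, the 2 FGFR3-expressing libraries reached levels of these 3 genes near those of the CCND2-expressing libraries. The mean of CASP1 in FGFR3-expressing libraries was 63.9% of that in CCND2-expressing libraries with CTBP2, and 4.51% with EV. For CARD16 the shares were 109.7% with CTBP2 and 11.2% with EV, and for CASP4 118.6% and 35.2%. Over the 8 libraries the log2 levels of CASP1 and CARD16 had a Pearson correlation of 0.967, CASP1 and CASP4 of 0.945 and CARD16 and CASP4 of 0.987, as a description, and the 2 NCI-H929 EV libraries were the lowest for all 3 genes. The 5 genes outside the set most like CASP1 by this measure were PTK2B (0.989), RTP4 (0.987), KDM4A (0.985), LAMP3 (0.984) and ECE1 (0.983). Clone-style and similar symbols, such as those that begin with LOC, KIAA or LINC, were left out of this ranking.

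**Figure D1:**
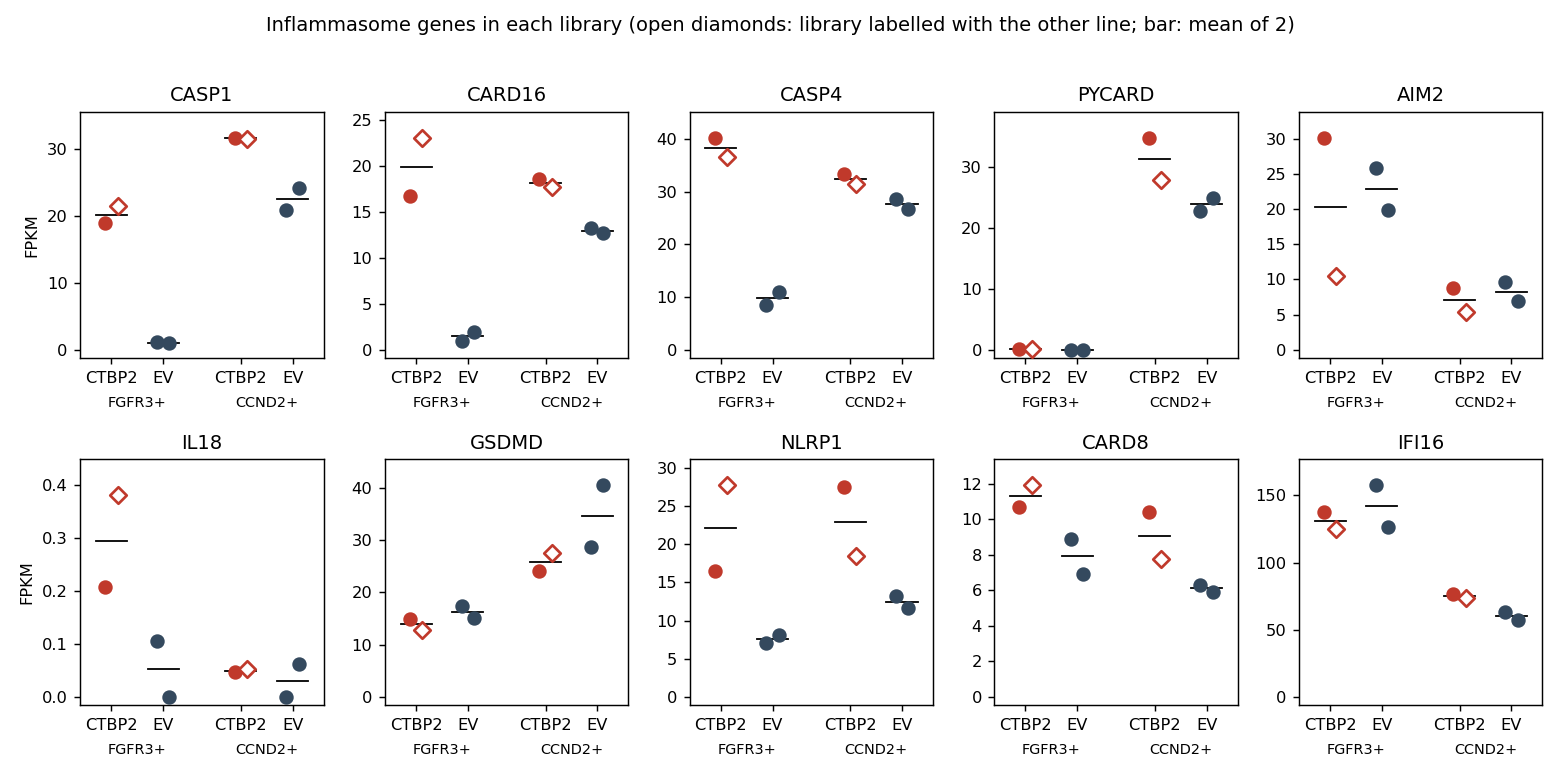
FPKM of the 10 genes in each library, by vector and by line gene (FGFR3+ or CCND2+, above 10 FPKM), each panel with its own linear axis. Points are libraries, bars the mean of 2, and open diamonds the libraries whose label names the other line. CASP1 and CARD16 are near the floor only in the NCI-H929 EV libraries (1.09 and 0.935 FPKM for CASP1), and PYCARD is near 0 in all 4 FGFR3-expressing libraries.

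PYCARD, the gene of the adaptor ASC, which joins sensors to caspase-1, was nearly absent from the FGFR3-expressing libraries with either vector. It was at 0.0903 and 0.0856 FPKM with CTBP2 there and was listed at 0 in both EV libraries. The CTBP2 values correspond to about 1.4 and 1.5 fragments, so no difference was detectable at this depth. In the CCND2-expressing libraries PYCARD was at 34.7 and 27.8 FPKM with CTBP2, against 22.7 and 24.9 FPKM with EV. The CTBP2 libraries lay above the EV libraries there, by 0.37 on the log2 scale (SE 0.16, limma adjusted p = 0.174), short of the threshold. With CTBP2 the FGFR3-expressing mean was 0.281% of the CCND2-expressing mean, so libraries with CASP1 at 18.8 and 21.5 FPKM had hardly any PYCARD RNA.

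Among the 4 sensors in the set (NLRP1, CARD8, AIM2 and IFI16), NLRP1 had the largest CTBP2 difference in both settings. NLRP1 forms an inflammasome after its own cleavage and is held back by the proteases DPP8 and DPP9. In FGFR3-expressing libraries it was at 16.5 and 27.8 FPKM with CTBP2, against 7.10 and 8.15 FPKM with EV. The groups did not overlap, with a ratio of means of 2.91 and a log2 difference of 1.38 (SE 0.27). In CCND2-expressing libraries NLRP1 was at 27.6 and 18.4 FPKM with CTBP2, against 13.3 and 11.6 FPKM with EV. The ratio of means was 1.85 and the log2 difference 0.81 (SE 0.27), which was short of the threshold (limma adjusted p = 0.102). The log2 difference was 1.09 without both displaced CTBP2 replicate 2 libraries. That fit had 1 CTBP2 library per line gene, so its pass rests on no spread between CTBP2 libraries, and nothing is read from it. NLRP1 also passed without the MM.1S-labelled CTBP2 replicate 2 alone and without NCI-H929 CTBP2 replicate 1. Those 2 libraries lie outside this contrast and enter only through the shared spread. The other 15 alternatives did not bring it past the threshold, with an adjusted p of up to 0.553.

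CARD8, a relative of NLRP1 that is cleaved in the same way and also restrained by DPP8 and DPP9, was expressed at a lower level. In FGFR3-expressing libraries it was at 10.7 and 11.9 FPKM with CTBP2, against 8.89 and 6.94 FPKM with EV. In CCND2-expressing libraries it was at 10.4 and 7.76 FPKM with CTBP2, against 6.30 and 5.91 FPKM with EV. The CTBP2 libraries lay above the EV libraries in both, and by a like amount, with log2 differences of 0.47 (SE 0.18) in FGFR3-expressing and 0.49 (SE 0.18, limma adjusted p = 0.137) in CCND2-expressing libraries. The value in CCND2-expressing libraries did not pass, and the difference between them was not tested.

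AIM2 and IFI16, which sense DNA in the cytosol and in the nucleus, lie on chromosome 1 and share no 50-base word between their transcripts. IFI16 had the highest level of the 10 genes in all 4 groups. It was at 137.5 and 125.1 FPKM in FGFR3-expressing libraries with CTBP2, against 158.0 and 126.5 FPKM with EV, which overlap. It was at 76.5 and 73.3 FPKM in CCND2-expressing libraries with CTBP2, against 63.2 and 57.2 FPKM with EV. These did not overlap, at a log2 difference of 0.31 (SE 0.17, limma adjusted p = 0.281), short of the threshold. In FGFR3-expressing libraries the difference was -0.11 (SE 0.17) and its sign turned under quantile normalization (0.26), with equal totals (0.29) and without NCI-H929 EV replicate 1 (0.05). AIM2 was at 30.2 and 10.4 FPKM in FGFR3-expressing libraries with CTBP2, against 25.9 and 19.9 FPKM with EV. It was at 8.84 and 5.37 FPKM in CCND2-expressing libraries with CTBP2, against 9.58 and 6.95 FPKM with EV. The groups overlapped in both, and the duplicates of AIM2 with CTBP2 were the most uneven of the 9 tested genes. Its log2 difference was -0.21 (SE 0.43, limma adjusted p = 0.797) in CCND2-expressing libraries, with a 95% interval of -1.21 to 0.78, and it was 0.10 without the NCI-H929-labelled CTBP2 replicate 2. In FGFR3-expressing libraries it was -0.33 (SE 0.43) and turned to 0.05 with equal totals and to 0.39 without the MM.1S-labelled CTBP2 replicate 2.

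Downstream of the caspases, GSDMD encodes gasdermin D, the pore former of pyroptotic death. It was at 14.9 and 12.9 FPKM in FGFR3-expressing libraries with CTBP2, against 17.4 and 15.0 FPKM with EV. It was at 24.1 and 27.6 FPKM in CCND2-expressing libraries with CTBP2, against 28.8 and 40.6 FPKM with EV. GSDMD was the one member whose CTBP2 libraries lay below the EV libraries in both settings. The log2 difference in CCND2-expressing libraries was -0.40 (SE 0.19, limma adjusted p = 0.233) and did not pass. In FGFR3-expressing libraries it was -0.21 (SE 0.19), and it was 0.17 with equal totals, where the median of all genes was 0.35. IL18, the gene of a cytokine precursor that caspase-1 activates, was barely detected. It was at 0.206 and 0.381 FPKM in FGFR3-expressing libraries with CTBP2, against 0.105 and 0 FPKM with EV, and at 0.0460 and 0.0522 FPKM in CCND2-expressing libraries with CTBP2, against 0 and 0.0612 FPKM with EV. These values correspond to between 0 and about 8.7 fragments per library, and IL18 was not tested.

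**Figure D2:**
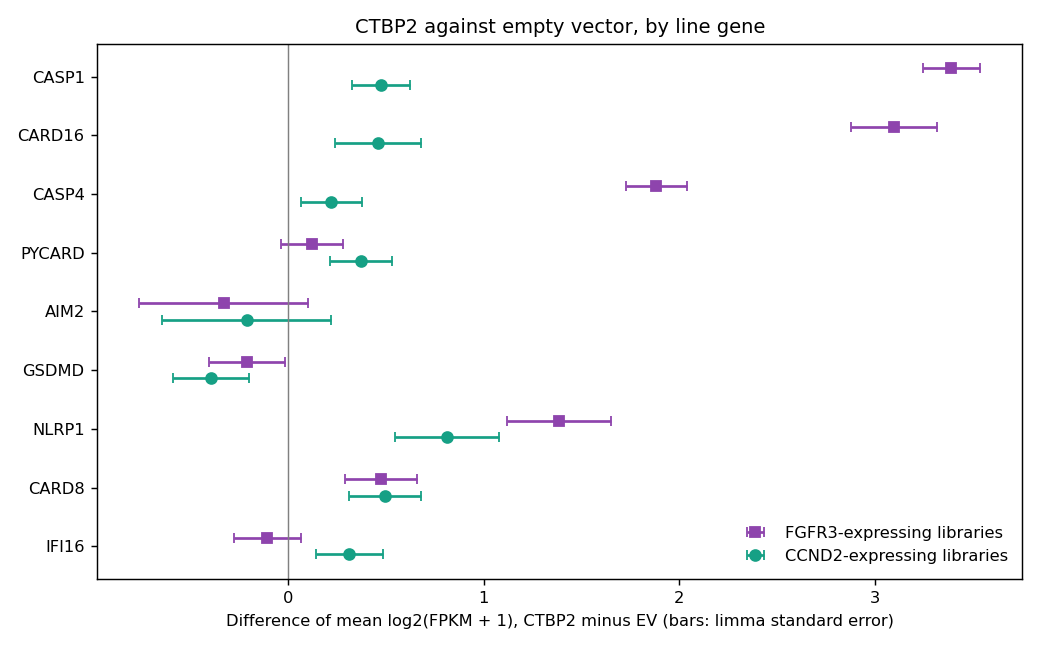
Difference of mean log2(FPKM + 1), CTBP2 minus EV, for the 9 tested genes in FGFR3-expressing (squares) and CCND2-expressing (circles) libraries, with bars of 1 limma standard error. CASP1, CARD16 and CASP4 lie at 3.39, 3.10 and 1.88 in FGFR3-expressing and at 0.47, 0.46 and 0.22 in CCND2-expressing libraries, while CARD8 lies at 0.47 and 0.49.

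Over the whole set, the CCND2-expressing comparison called 0 of the 9 tested members, against 5.47% of all 12583 genes (688, of which 3.67% of the tested genes were higher and 1.80% lower with CTBP2). At an unadjusted limma p under 0.05, 4 of the 9 were past the limit, CASP1, PYCARD, NLRP1 and CARD8. So were 3391 of all 12583 genes tested, so passing this limit was common. Both CTBP2 libraries lay above both EV libraries for 7 of the 9 (CASP1, CARD16, CASP4, PYCARD, NLRP1, CARD8 and IFI16), where 31.6% of all genes did so, and below for GSDMD alone, where 31.3% did so. The median log2 difference was 0.37 over the 9 members and 0.00 over all genes. The set was put together around CASP1 and CARD16, and these and CASP4 varied together over the libraries. The 9 are thus not independent, and nothing is read from these counts or this median. Leaving out both displaced libraries left 1 CTBP2 library in each group, so only the differences are given. They were 1.09 for NLRP1, 0.68 for CARD8, 0.53 for PYCARD, 0.49 for CARD16 and 0.48 for CASP1. For the rest they were 0.34 for IFI16, 0.26 for CASP4, 0.10 for AIM2 and -0.49 for GSDMD. With the lines as titled 0 of 9 and 3 of 12583 genes were called. In the FGFR3-expressing comparison, which chose the set, the fit put 4 of 9 past the same threshold upward, CASP1, CARD16, CASP4 and NLRP1, and 0 downward, against 18.3% and 14.6% of all genes (32.9% in either direction), and nothing is read from that count. Both CTBP2 libraries lay above both EV libraries for 6 of the 9 there (37.0% of all genes) and below for GSDMD (31.0%), likewise a description. PYCARD is among the 6 on about 1.4 and 1.5 fragments with CTBP2 and 0 with EV, where no difference was detectable. The median there was 0.47 over the 9 members and 0.05 over all genes. Without both displaced libraries these 4 had differences of 3.30, 2.88, 1.95 and 1.02 and CARD8 had 0.40. With the lines as titled the values were 3.66 for CASP1, 2.92 for CARD16, 1.78 for CASP4 and 1.10 for NLRP1.

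Scaling to equal totals shifted all genes, and the medians then were 0.14 in the CCND2-expressing and 0.35 in the FGFR3-expressing comparison and -0.27 between the lines with EV. Calls were split into 585 higher and 99 lower in the CCND2-expressing comparison under that scaling, against 462 and 226 as deposited. In the FGFR3-expressing comparison they were split into 3858 higher and 646 lower, against 2298 and 1840 as deposited and 1938 and 2411 after a median-of-ratios rescale. Between the lines with EV the split was 1954 higher and 4201 lower, against 2778 and 3617 as deposited. Relative to these medians, CASP1, CARD16, CASP4 and NLRP1 lay above in both CTBP2 comparisons, and GSDMD and AIM2 below.

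The lines differed at several members without CTBP2. In this comparison of NCI-H929 EV over MM.1S EV all 4 libraries matched their labels. The fit called 7 of 9 members, 2 higher and 5 lower in NCI-H929, against 50.8% of all genes (22.1% higher and 28.7% lower). CASP1 and CARD16 are among the 5 by choice, and PYCARD passed the filter on low values only through the CCND2-expressing libraries, so nothing is read from the count. CASP1 was lower by a log2 difference of -3.54 and CARD16 by -2.53, given without a test. PYCARD was listed at 0 in both NCI-H929 EV libraries, against 22.7 and 24.9 FPKM in MM.1S EV libraries, given without a test for the same reason. CASP4 had a log2 difference of -1.42 (SE 0.16, limma adjusted p = 0.000166) and GSDMD of -1.04 (SE 0.19, limma adjusted p = 0.00277).

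In the other direction, IFI16 was higher in NCI-H929, at 158.0 and 126.5 FPKM against 63.2 and 57.2 FPKM in MM.1S, a log2 difference of 1.22 (SE 0.17, limma adjusted p = 0.000644). AIM2 was at 25.9 and 19.9 FPKM in NCI-H929 against 9.58 and 6.95 FPKM in MM.1S, a log2 difference of 1.37 (SE 0.43, limma adjusted p = 0.0284). The AIM2 call was lost when any 1 of the 4 EV libraries was left out, with an adjusted p of 0.0627 to 0.139, and without a filter on low values. NLRP1 was at 7.10 and 8.15 FPKM in NCI-H929 against 13.3 and 11.6 FPKM in MM.1S, a log2 difference of -0.64 (SE 0.27, limma adjusted p = 0.0744), and it passed without both displaced libraries (limma adjusted p = 0.0131). CARD8 had a log2 difference of 0.32 (SE 0.18, limma adjusted p = 0.178) and did not pass. With the lines as titled, no tested member was called in this comparison (limma adjusted p of 0.204 to 0.357).

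**Figure D3:**
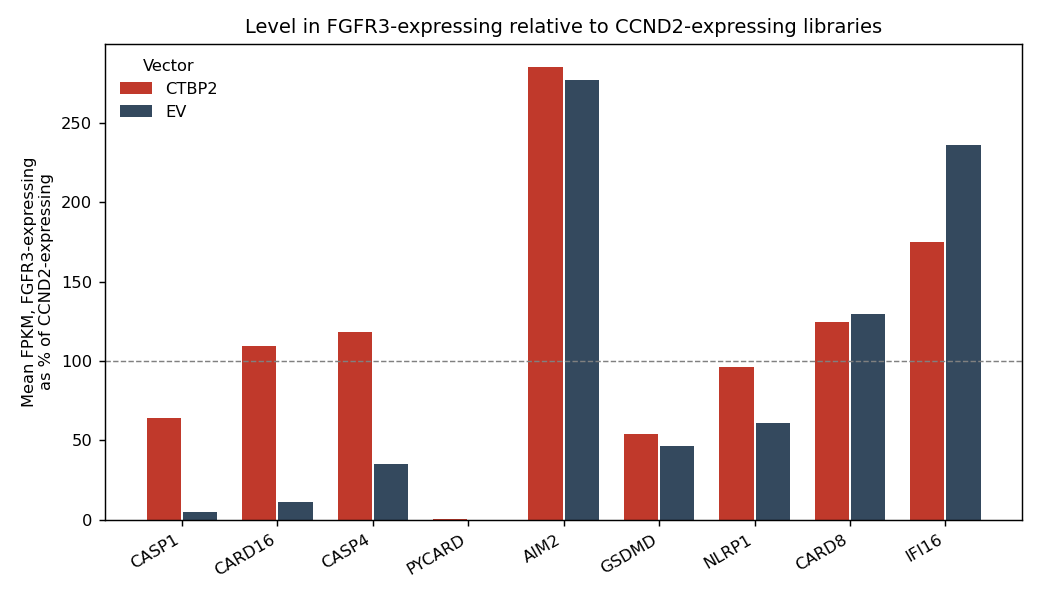
Mean FPKM in FGFR3-expressing libraries as a percentage of that in CCND2-expressing libraries, with CTBP2 and with EV, for the 9 genes other than IL18 (bars, 2 libraries in each mean, dashed line where both are equal). CASP1 stands at 63.9% with CTBP2 and 4.51% with EV, PYCARD at 0.281% and 0%, and IFI16 at 175% and 236%.

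The sequence before the start was looked at for the members that had an entry in the RefSeq promoter table of GRCh38.p14, which were CASP4, PYCARD, AIM2, IFI16 and CARD8. The windows of CASP4 and PYCARD are shown, as the member of the caspase cluster whose level tracked CASP1 and the member nearly absent from FGFR3-expressing libraries. Each is 250 bases on the minus strand, CASP4 at chr11:104968575-104968824 and PYCARD at chr16:31202761-31203010, with capitals for a match.
CASP4: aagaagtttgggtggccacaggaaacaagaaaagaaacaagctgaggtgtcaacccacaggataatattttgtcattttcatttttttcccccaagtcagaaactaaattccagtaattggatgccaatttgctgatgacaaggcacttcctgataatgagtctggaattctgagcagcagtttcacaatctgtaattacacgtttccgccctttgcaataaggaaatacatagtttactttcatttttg
PYCARD: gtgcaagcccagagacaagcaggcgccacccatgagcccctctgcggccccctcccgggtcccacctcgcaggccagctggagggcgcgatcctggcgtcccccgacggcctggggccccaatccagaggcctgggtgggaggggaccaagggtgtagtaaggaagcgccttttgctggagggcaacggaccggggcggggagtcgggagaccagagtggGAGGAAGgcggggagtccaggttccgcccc
The motifs searched on both strands were GAAA repeated after 2 free bases (interferon response), TTCNNNGAA (STAT), CACGTG (E-box), CAGGTG (ZEB E-box), CACACCC (KLF) and GAGGAAG (SPI1), which occur in 3.02%, 6.57%, 6.34%, 17.5%, 6.63% and 11.2% of the 35116 promoter windows of the same length. The CASP4 window held none of these letters. The PYCARD window held GAGGAAG at -30 from the start, and the AIM2 window held TTTCTGTTTC, the interferon response pattern on the other strand, at -190. CARD8 has several start sites in the table, and among its windows the interferon response pattern stood in 2 (TTTCCCTTTC at -47 and at -66, overlapping windows), the STAT pattern in 1 (TTCTCAGAA at -18) and CAGGTG in 1 (at -96). PYCARD had 71.2% G and C and 16 CG pairs and CASP4 38.0% and 2, where the windows of all genes had a median of 11 CG pairs with quartiles of 3 and 23.

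Other genes of the pathway were read from 5 lists. Guanylate binding proteins and interferon pathway factors, which act with and upstream of several sensors, had 18 of 20 genes tested. With CTBP2 in CCND2-expressing libraries 6 of them rose and 0 fell, where 3.67% and 1.80% of all genes did so, and the median log2 difference was 0.29. Of the 6, 2 (GBP4 and GBP2) reached 1 FPKM only in CTBP2 libraries and so passed the filter only where they were high. These 2 are given by their values, and nothing is read from the count of 6, here or under the alternatives below. SPI1, a transcription factor of myeloid and B cells, was at 24.6 and 26.8 FPKM with CTBP2, against 10.3 and 10.0 FPKM with EV, a log2 difference of 1.26 (SE 0.13, limma adjusted p = 0.00521). GBP4, an interferon-induced GTPase, was at 5.58 and 2.81 FPKM with CTBP2, against 0.374 and 0.354 FPKM with EV, a log2 difference of 1.88. GBP2, of the same family, was at 3.07 and 2.78 FPKM with CTBP2, against 0.928 and 0.771 FPKM with EV, a log2 difference of 1.09. The same genes had differences of 0.57 (SPI1), 0.57 (GBP4) and 1.18 (GBP2) in FGFR3-expressing libraries. There 9 of the 18 were past the threshold upward and 0 downward, against 18.3% and 14.6% of all genes. The set was chosen from that comparison, so nothing is read from this count. Without both displaced libraries 7 of 18 rose in the CCND2-expressing comparison, where 5.80% of all genes did so. Without MM.1S EV replicate 1, MM.1S CTBP2 replicate 1 or MM.1S EV replicate 2 the count was 0, 1 (GBP4) and 0, and without either NCI-H929 EV library it was 3. With the lines as titled, 0 genes of any of the 5 lists were called by limma in either tested comparison. In NCI-H929 EV over MM.1S EV, 2 of 18 were higher and 8 lower, against 22.1% and 28.7% of all genes, and 1 of these 2 and 2 of these 8 passed the filter only through libraries of the line gene where they were high. Those 2 were GBP1, at 0.0666 and 0.0561 FPKM in NCI-H929 against 10.6 and 10.3 FPKM in MM.1S, and IRF8, at 0.0193 and 0 FPKM in NCI-H929 against 3.11 and 3.30 FPKM in MM.1S. GBP3 was lower by a log2 difference of -2.59 (limma adjusted p = 1.39e-05).

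The other caspases and proteins with a CARD or PYD domain had 12 of 17 genes tested. In CCND2-expressing libraries with CTBP2, where 3.67% of all genes were past the threshold upward, 2 of these were, CARD17 and CARD6. Both reached 1 FPKM only in CTBP2 libraries, so they passed the filter only where they were high, and they are given by their values. CARD17, a further relative of CARD16 in the cluster, was at 3.21 and 2.93 FPKM with CTBP2, against 0.770 and 0.203 FPKM with EV (log2 difference 1.48). In FGFR3-expressing libraries CARD17 was at 2.62 and 1.43 FPKM with CTBP2 and was listed at 0 in both EV libraries. RefSeq lists it as the pseudogene CARD17P, derived from the same caspase recruitment domain, so its share of reads is uncertain. CARD6 was at 2.95 and 2.35 FPKM with CTBP2, against 0.624 and 0.658 FPKM with EV (log2 difference 1.15). Neither call was held when MM.1S EV replicate 1, MM.1S CTBP2 replicate 1 or MM.1S EV replicate 2 was left out. The CARD17 call was also lost without the NCI-H929-labelled CTBP2 replicate 2. Between the lines with EV, 1 of 12 was higher and 6 lower in NCI-H929, where 22.1% and 28.7% of all genes were, and 1 of the 6 passed the filter only through CCND2-expressing libraries. Those lower included CASP2 (-1.46, limma adjusted p = 0.000359) and CASP6 (-1.12, 0.000465).

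Other sensors had 7 of 15 genes tested. In CCND2-expressing libraries with CTBP2, where 3.67% of all genes rose and 1.80% fell, 0 of these rose and 1 fell. It was CIITA, the activator of MHC class II genes (log2 difference -0.88, limma adjusted p = 0.0269), which was called in 6 of 17 alternatives and not without both displaced libraries (limma adjusted p = 0.0559). Between the lines with EV, 2 of 7 were higher and 3 lower in NCI-H929, where 22.1% and 28.7% of all genes were. These 3 (NLRP7, NOD2 and CIITA) passed the filter only through CCND2-expressing libraries, where they were high, and nothing is read from their count. NLRP7 was at 0.0736 and 0.144 FPKM in NCI-H929 against 32.5 and 45.5 FPKM in MM.1S, and NOD2 at 0 and 0.0251 FPKM in NCI-H929 against 5.54 and 4.82 FPKM in MM.1S. Regulators of the inflammasome had 16 of 18 genes tested, of which 1 rose and 0 fell, against 3.67% and 1.80% of all genes. BIRC3, a ubiquitin ligase of the inhibitor of apoptosis family, was at 55.9 and 37.5 FPKM with CTBP2, against 15.9 and 18.6 FPKM with EV (log2 difference 1.36, limma adjusted p = 0.0340), and was called in 8 of 18 alternatives. Between the lines with EV, 5 of the 16 were higher and 4 lower, near the shares of all genes, and 2 of the 4 passed the filter only through CCND2-expressing libraries. Differences included BIRC3 at -3.09 (limma adjusted p = 5.63e-05) and XIAP at 1.37 (0.000573).

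Substrates and downstream genes had 8 of 18 genes tested. In CCND2-expressing libraries with CTBP2 1 of them rose and 1 fell, against 3.67% and 1.80% of all genes. DFNA5, the gene of gasdermin E, rose by 1.09 (limma adjusted p = 0.0197), and HMGB1, a nuclear protein released by dying cells, fell by 0.97 (limma adjusted p = 0.0390). In FGFR3-expressing libraries the differences were 0.16 for DFNA5 and -0.85 for HMGB1. The DFNA5 call was lost without MM.1S EV replicate 1, MM.1S CTBP2 replicate 1 or the NCI-H929-labelled CTBP2 replicate 2, and HMGB1 was called in 9 of 18 alternatives. Between the lines with EV, 1 of 8 was higher and 5 lower in NCI-H929, where 22.1% and 28.7% of all genes were, but that 1 and 3 of the 5 passed the filter only through libraries of the line gene where they were high. GSDMC, of the gasdermin family, was 1 of these 3, at 0.0189 and 0.0212 FPKM in NCI-H929 against 2.28 and 3.24 FPKM in MM.1S. The calls of CIITA, BIRC3 and HMGB1 were each lost when any 1 of the 6 libraries other than the MM.1S-labelled CTBP2 replicate 2 and NCI-H929 CTBP2 replicate 1 was left out. IL1B, the gene of the other main cytokine precursor cut by caspase-1, was listed at 0 in 7 of 8 libraries, and NLRP3, the best studied sensor, did not exceed 0.288 FPKM. These 2 genes and CASP5, which did not exceed 0.176 FPKM, are named after their values were seen.

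**Figure D4:**
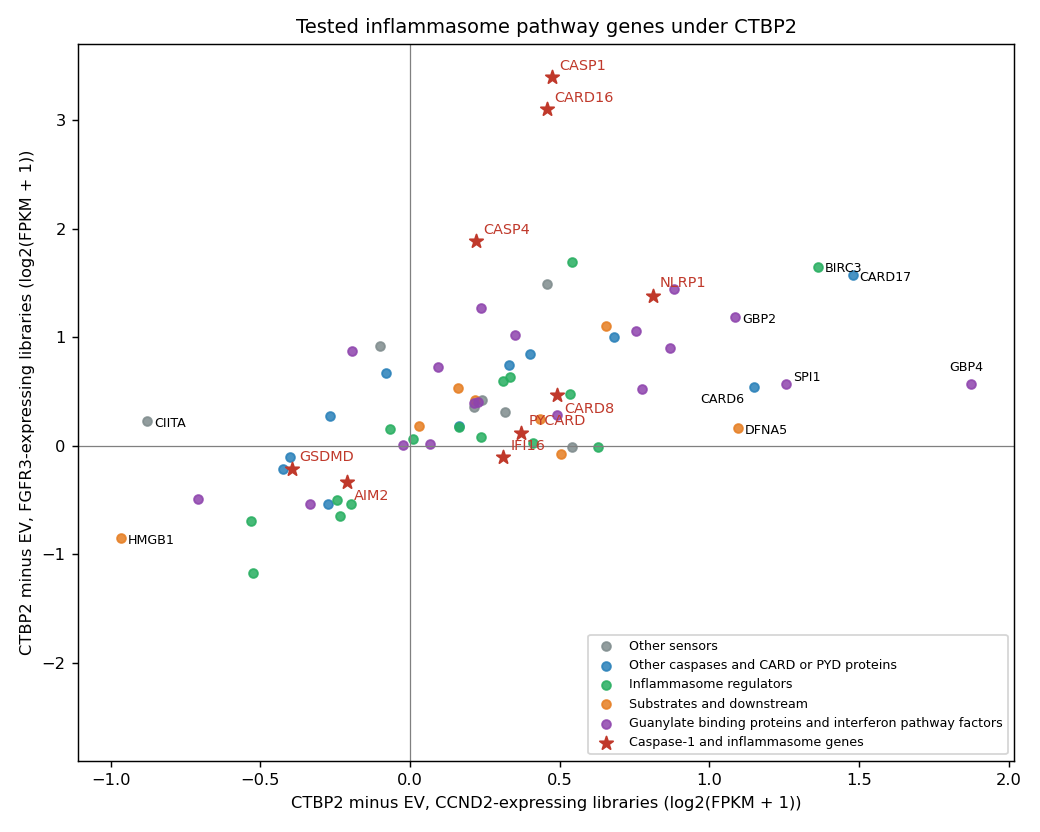
Difference of mean log2(FPKM + 1), CTBP2 minus EV, in CCND2-expressing (x axis) and FGFR3-expressing (y axis) libraries for the tested genes of the 5 lists (circles, without 1 gene that is not reported) and the 9 tested caspase-1 and inflammasome genes (stars). CASP1 at 0.47 and 3.39 and CARD16 at 0.46 and 3.10 lie above every circle on the y axis, and GBP4 lies furthest right at 1.88.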

How the data were processed

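RNA from 8 libraries of MM.1S and NCI-H929 cells was sequenced after a TruSeq preparation, per the labels' protocols. The authors deposited FPKM values for 25906 genes, with the unit taken from the name and values of the deposited table. Tools named in the submitters' processing notes are STAR 2.6.0b-1, DESeq2 2.11.40.2, HTSeq 0.9.1, Trimmomatic 0.36.5 and FastQC 0.11.7, with the builds GRCh37 and hg19 and no roles. What computed the FPKM, and on which annotation, is not given in the sources used here.

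The 12583 genes that reached 1 FPKM in 2 or more of 8 libraries were fitted as log2(FPKM + 1) in R 4.3.3 by limma 3.58.1 (moderated tests with a variance trend), with 1 mean per line gene and vector. Genes were called at a Benjamini-Hochberg adjusted p under 0.05, two-sided. The line was read from CCND2 or FGFR3 above 10 FPKM. The members, gene lists, tests and alternatives were chosen with earlier results of these data known. Named genes are the members and, per list, up to 3 called genes by smallest p in the CCND2-expressing and EV comparisons. Likeness to CASP1 is the Pearson correlation of log2 levels over 8 libraries, with clone-style and similar symbols left out.

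The alternatives tried were 0.1 as pseudocount, a minimum of 5 FPKM or none, 3 rescalings, no variance trend, a replicate block, lines as titled, 6 libraries without both CTBP2 replicate 2 libraries, and leaving out each library. The fit was also run on simulated data with independent noise and added shifts. Those data held no displaced libraries and no deviations shared by same-numbered libraries, so they say nothing about the effect of either. Fragments per library were estimated from steps between low FPKM values. The depth kept for each library was the one that put most of these values within 0.1 of a whole fragment. That share was 55.3 to 64.8% per library, so no count test was run. Chance gives 20% at any fixed depth and more at the best of many depths. Shared words and coding runs come from GENCODE transcripts matched by the table's transcript IDs, and promoters from RefSeq on GRCh38.p14, with 5 of 10 members matched. For 1 gene of the list of other caspases and CARD or PYD proteins the values and the call are not reported here, though it is counted among the genes tested and in the count between EV libraries.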

Additional observations from a re-analysis of the deposited data

How the results depend on the processing

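In CCND2-expressing libraries 688 genes were called for CTBP2 over EV, 384 without a filter, 422 with a filter of 5 FPKM, 412 with the replicate block, 3 with the lines as titled and 1429 in 6 libraries. Leaving out 1 library gave 16 to 1420, with 16 without MM.1S CTBP2 replicate 1, 20 without MM.1S EV replicate 1 and 41 without MM.1S EV replicate 2. In FGFR3-expressing libraries 4138 were called, 3614 with the block, 7 as titled and 1929 in 6 libraries, and 954 to 5127 without 1 library (954 without NCI-H929 EV replicate 1). For NCI-H929 EV over MM.1S EV 6395 were called, 6140 with the block, 5 as titled and 4599 to 7072 without 1 library.

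Direction turned for PYCARD in CCND2-expressing libraries as titled (-1.99) and for AIM2 there as titled (0.21), in 6 libraries (0.10) and when the NCI-H929-labelled CTBP2 replicate 2 was left out (0.10, within -0.53 to 0.10 over the single libraries left out). For GSDMD in FGFR3-expressing libraries it turned with equal totals (0.17) and as titled (0.31). The cause was not tested. Of the 9 members in the CCND2-expressing comparison, NLRP1 passed in 3 of 18 alternatives and the other 8 in none of their 18. CASP4, GSDMD and IFI16 between EV libraries kept their calls in 17 of 18, all but the lines as titled.

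Replicate numbers are tied to nothing in the labels. Deviations of same-numbered CTBP2 and EV libraries correlated at 0.435 in CCND2-expressing and 0.452 in FGFR3-expressing libraries, and at -0.275 between the CTBP2 libraries of both. The replicate block changed no call of a tested member. It was 1 term common to both line patterns, so it did not model a pairing within each, and neither did the main fit. With 2 libraries a group, and about 1 fragment behind PYCARD in FGFR3-expressing libraries, small differences were not detectable. When 1 library or both displaced libraries were left out, each lone library was assumed to vary like the others.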
